A study of Homo sapiens with 36 samples.

Results

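Double knockdown of BRG1 and BRM, the alternative ATPases of the SWI/SNF chromatin remodelling complex, was compared with control siRNA by ATAC-seq in BT549, an established human triple-negative breast cancer cell line. ATAC-seq maps open chromatin by letting a transposase insert sequencing adapters where DNA is accessible. The 8 libraries, of 36 in all, were those labelled siBRG1+siBRM (4 libraries, called the knockdown libraries) and siCtl with no vehicle label (4 libraries, called the control libraries). Cells of both groups carried no other labelled treatment and were of the same line, labelled wild type. The labels describe neither the siRNA against BRG1 and BRM nor how long the cells were exposed to it. Each library has its own peak list. Overlapping peaks of the 8 lists on chromosomes 1 to 22 and X were merged, which gave 128681 regions. A region counted as held by each library with a peak overlapping it by 1 bp or more. A region was called lost when all 4 control libraries and 0 of 4 knockdown libraries held it, and gained in the reverse case. Libraries of the same line from other arms of the study served as independent readouts. These were DMSO and 10 µM BRM014, an inhibitor of both ATPases, given for 4 h (4 libraries each), the same pair with 500 nM dexamethasone for 4 h (4 libraries each), and control siRNA with vehicle or with dexamethasone for 2 h (3 libraries each). They are called DMSO, BRM014, DEX + DMSO, DEX + BRM014, siCtl vehicle and siCtl DEX.

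SWI/SNF complexes use ATP to slide or evict nucleosomes. Each complex carries either BRG1, encoded by SMARCA4, or BRM, encoded by SMARCA2, as its motor. In mammalian cells the complexes are known for keeping enhancers accessible to transcription factors such as AP-1 (dimers of FOS and JUN proteins) and TEAD (the DNA-binding partner of the coactivator YAP1), whereas many CpG-rich promoters depend on them less.

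To show lost start sites with AP-1 letters beside the start sites of the targeted genes, 6 promoter windows are printed from RefSeq (GRCh38.p14), each running from 250 bases before to 50 bases after a start site, 5′ to 3′ on the gene's strand. The first 4 are the windows with an AP-1 match that were lost and stood highest in the control lists, and capitals mark TGANTCA on either strand. They belong to DHRS9, a retinol dehydrogenase (chr2:169069313-169069612, plus strand), BCAR1, the adhesion scaffold p130Cas (chr16:75267958-75268257, minus), ZNF668, a zinc finger protein (chr16:31064980-31065279, minus), and EGFR, the epidermal growth factor receptor (chr7:55109589-55109888, plus). The EGFR window is at a start site inside the gene and holds 2 matches. The last pair are the start sites of the targeted genes, SMARCA4 (chr19:10960780-10961079, plus) and SMARCA2 (chr9:2015097-2015396, plus), which all 8 libraries held, and capitals mark the GC box GGGCGG or its reverse complement.
DHRS9: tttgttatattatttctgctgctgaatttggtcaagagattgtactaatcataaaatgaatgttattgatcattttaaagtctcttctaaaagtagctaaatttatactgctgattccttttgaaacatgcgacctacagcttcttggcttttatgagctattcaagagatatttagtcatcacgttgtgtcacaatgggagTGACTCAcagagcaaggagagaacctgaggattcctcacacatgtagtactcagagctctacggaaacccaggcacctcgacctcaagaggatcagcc
BCAR1: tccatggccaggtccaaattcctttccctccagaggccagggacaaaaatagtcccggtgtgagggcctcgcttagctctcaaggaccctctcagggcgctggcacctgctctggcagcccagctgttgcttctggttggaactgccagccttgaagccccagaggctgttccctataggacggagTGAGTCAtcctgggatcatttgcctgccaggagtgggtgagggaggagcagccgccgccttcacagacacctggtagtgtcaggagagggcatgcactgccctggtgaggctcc
ZNF668: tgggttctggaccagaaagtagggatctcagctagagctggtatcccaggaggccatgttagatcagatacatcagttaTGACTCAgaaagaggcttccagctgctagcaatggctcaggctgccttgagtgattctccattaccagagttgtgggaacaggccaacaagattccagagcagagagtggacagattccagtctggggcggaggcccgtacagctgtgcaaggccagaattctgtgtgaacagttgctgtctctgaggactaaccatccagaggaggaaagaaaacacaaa
EGFR: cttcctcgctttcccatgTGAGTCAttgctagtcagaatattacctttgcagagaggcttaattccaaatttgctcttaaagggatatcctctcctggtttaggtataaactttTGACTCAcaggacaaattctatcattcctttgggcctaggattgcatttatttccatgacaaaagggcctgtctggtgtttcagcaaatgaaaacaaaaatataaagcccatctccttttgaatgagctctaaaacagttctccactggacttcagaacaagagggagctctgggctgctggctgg
SMARCA4: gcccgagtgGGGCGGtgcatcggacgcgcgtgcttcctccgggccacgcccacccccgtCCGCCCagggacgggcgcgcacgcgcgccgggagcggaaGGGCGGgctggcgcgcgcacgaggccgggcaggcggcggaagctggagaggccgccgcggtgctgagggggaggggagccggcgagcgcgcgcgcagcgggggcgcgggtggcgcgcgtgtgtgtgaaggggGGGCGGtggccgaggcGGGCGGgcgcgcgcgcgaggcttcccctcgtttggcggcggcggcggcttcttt
SMARCA2: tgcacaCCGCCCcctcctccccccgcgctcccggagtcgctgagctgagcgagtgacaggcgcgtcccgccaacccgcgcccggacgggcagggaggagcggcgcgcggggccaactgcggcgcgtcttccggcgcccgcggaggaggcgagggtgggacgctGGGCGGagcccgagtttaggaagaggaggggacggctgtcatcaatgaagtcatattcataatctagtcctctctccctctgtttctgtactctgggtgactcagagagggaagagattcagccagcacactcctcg
The 4 lost windows had a GC content of 39.0% (DHRS9), 60.7% (BCAR1), 50.7% (ZNF668) and 42.0% (EGFR), with 4, 6, 2 and 1 CpG dinucleotides. SMARCA4 and SMARCA2 had 81.3% and 66.7%, with 55 and 30 CpG. All 4 DMSO libraries held each of the 4 lost windows, and the number of BRM014 libraries that did was 0 for DHRS9 and BCAR1, 1 for ZNF668 and 2 for EGFR. These 6 do not stand for their classes, since 23 of 156 lost windows had an AP-1 match and the median GC content was 65.3% in all lost windows and 66.3% in all windows held by the 8 libraries. An AP-1 match is not particular to lost windows either, since the SMARCA2 window also holds one, left in lower case.

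The knockdown libraries held far fewer peaks than the control libraries. Control libraries 1 to 4 had 87609, 87196, 81639 and 86631 peaks, and knockdown libraries 1 to 4 had 66607, 51438, 37184 and 48507. No knockdown library reached the lowest control library, and the knockdown libraries differed more among themselves, with replicate 1 highest and replicate 3 lowest. The mean fell from 85769 ± 2782 to 50934 ± 12122 (SD, n = 4 each), a change of -40.6% (two-sided exact permutation test, p = 0.0286, the smallest that 4 against 4 can give, adjusted p = 0.0357 over 5 tests). The sequence covered by peaks fell from 16.9 ± 0.660 Mb to 9.35 ± 2.33 Mb, and the median peak width from 156 ± 4.03 bp to 142 ± 2.5 bp, each with an exact adjusted p of 0.0357. The relative depth of the libraries was read as the lowest background level recovered under the weak peaks. It was 0.293 ± 0.0465 reads in the control and 0.281 ± 0.0210 in the knockdown libraries (exact permutation p = 0.686). Peak numbers thus differed between groups whose background ranges overlapped. In knockdown libraries 1 to 4 the level was 0.259, 0.276, 0.309 and 0.280, highest in the library with fewest peaks. Whether depth had a part in the fall in peaks was not tested.

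Peaks away from gene ends made up a smaller part of the lists after knockdown. Peaks inside a gene count among them when they lie far enough from its ends. Distal peaks, whose summits lie more than 1000 bp away from either end of any gene (protein-coding or lncRNA), were 72.2, 70.5, 69.6 and 71.1% of the control lists and 68.4, 61.9, 57.1 and 59.7% of the knockdown lists. The groups did not overlap, and the share fell by 9.10 points, from 70.8 ± 1.08% to 61.8 ± 4.82% (exact permutation test, adjusted p = 0.0357). When any 1 control library was left out, the tests of peak number and distal share gave an exact p of 0.0571, with values close to those above. The size of the fall in distal share depends on list length. With an equal number of best peaks taken from every library, it differed by -5.91 points (57.4% against 63.3%, exact permutation p = 0.0286).

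**Figure D1:**
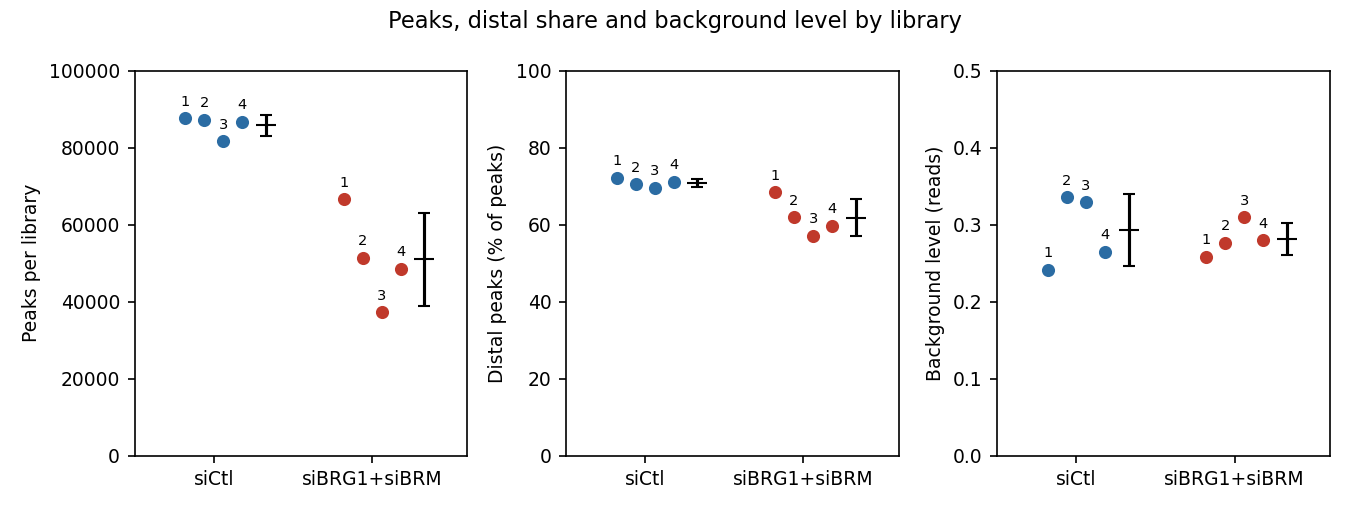
Peaks per library, percent of peaks that are distal, and lowest recovered background level, for the 4 siCtl and 4 siBRG1+siBRM libraries. Points are libraries marked with their replicate number, and bars are the mean ± SD. Peak number and distal share separate the groups (37184 to 66607 against 81639 to 87609 peaks) while the background levels overlap.

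Of the 128681 regions, 8503 were lost (6.61%) and 35 were gained (0.0272%), a ratio of 243 lost for each gained region. The control libraries shared 59398 regions. Of these, 14.3% were lost, 8333 were held by 1 knockdown library, 6091 by 2, 7600 by 3 and 28871 by all 4. Knockdown libraries 1 to 4 held 81.2, 68.6, 52.4 and 65.2% of the shared control regions. Replicate 1 alone held 6762 regions that no other knockdown library did, and replicate 3 alone lacked 5865. Without knockdown replicate 1, 15275 regions were lost and 69 gained, and without replicate 3 the counts were 8584 and 74. Just outside the rule lay 6191 regions held by 3 control and 0 knockdown libraries, 133 held by 0 control and 3 knockdown libraries, and 60 held by 1 control and 4 knockdown libraries.

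The excess of lost over gained regions depends in size on the lengths of the lists. With an equal number of best peaks taken from every library, 2551 regions were lost and 755 gained, so that gained regions were 22.8% of the calls instead of 0.410%. In that setting the median peak width differed by -70.0 bp rather than -13.5 bp.

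Lost regions were narrower, farther from start sites and of lower control rank than those held by all 8 libraries. Their median width was 223 bp against 278 bp, and 88.7% against 53.4% were distal. Inside a gene (protein-coding or lncRNA) lay 63.5% of the lost regions and 55.9% of those held throughout. The median distance to a RefSeq start site was 32.1 kb for lost regions and 4.20 kb for those held throughout, and 8.59% against 41.9% lay within 1 kb of one (chromosome 8 is outside the start-site table used here). Within the control lists, the −log10 q of the lost regions had a median percentile of 39.6, and that of the regions held throughout 78.6. All of these are descriptions of sets that the rule defined.

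Both distance and rank went with loss. Among regions shared by the control libraries, 4.32% of those within 1 kb of a start site were lost, 12.6% at 1 to 10 kb, 17.3% at 10 to 50 kb, 20.4% at 50 to 100 kb and 26.2% beyond 100 kb. By quintiles of control rank, from weakest to strongest, the lost share was 36.6, 21.0, 10.6, 3.12 and 0.210%. The order by distance held inside each of the 4 weaker quintiles. In the middle quintile, for example, 1.21% of regions within 1 kb of a start site and 21.2% of those beyond 100 kb were lost. In the strongest quintile 25 regions were lost, while the share held by all 8 libraries went from 99.1% within 1 kb to 65% beyond 100 kb.

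**Figure D2:**
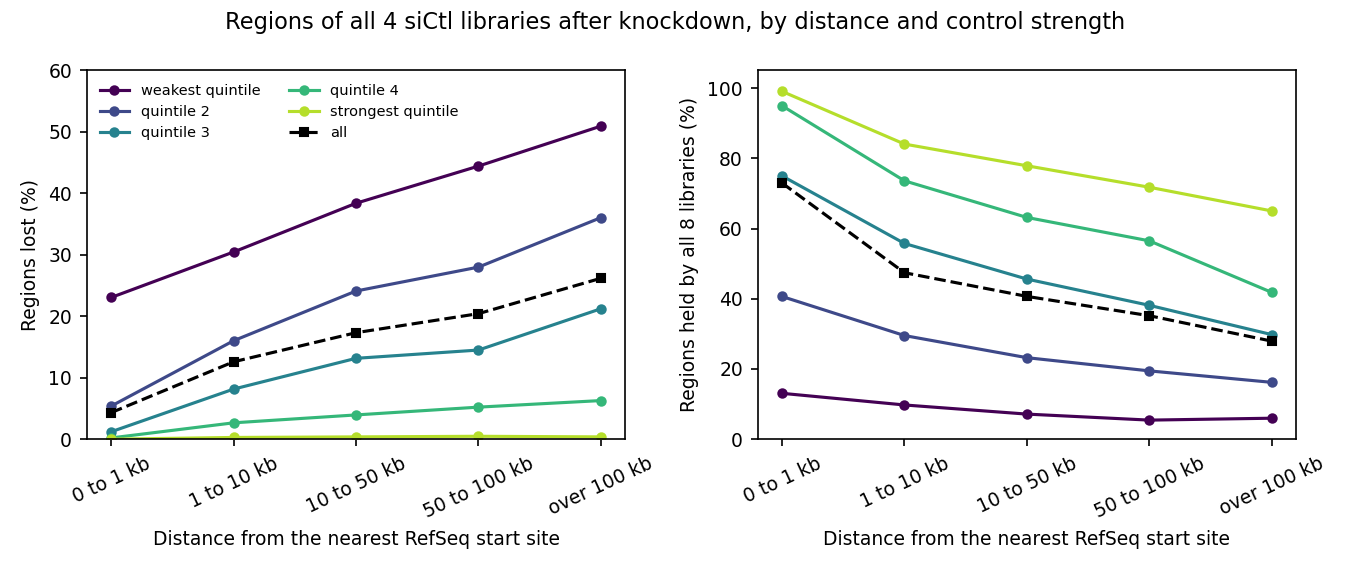
Regions of all 4 siCtl libraries by distance from the nearest start site. Left, percent lost, and right, percent held by all 8 libraries, with 1 line per quintile of control rank and a dashed line for all regions, from 4.32 to 26.2% lost and from 73.0 to 27.9% held.

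The same distance dependence was tested on regions that neither siRNA group had chosen, those held by all 4 DMSO libraries. Within 1 kb of a start site (15841 regions), the control libraries held 97.2, 98.6, 97.3 and 96.8% and the knockdown libraries 91.5, 87.2, 75.2 and 86.0%. Beyond 100 kb (7274 regions), control libraries held 93.3, 91.8, 84.6 and 81.8%, and knockdown libraries 61.3, 39.4, 25.8 and 35.7%. Knockdown libraries lay below every control library in both classes, with a much wider gap far from start sites. The mean changed by -12.5 points within 1 kb, by -29.5, -35.9 and -40.6 points in the classes between and by -47.3 points beyond 100 kb, each with an exact adjusted p of 0.0286. The difference between the outer classes was 34.8 points, and 39.1 points in the middle quintile of DMSO rank (exact permutation test, adjusted p = 0.0286 over 23 tests, the smallest that 4 against 4 can give). The middle quintile had the largest difference of the 5. It was 6.37 points in the weakest quintile, where regions near start sites also changed by -44.0 points, 27.4 in the next, 37.4 in quintile 4 and 19.6 in the strongest, and these 4 were not tested.

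Inhibition of the ATPases by BRM014 gave an independent readout of the regions lost with the siRNA. DMSO libraries 1 to 4 held 87.1, 91.4, 88.8 and 90.5% of the 8503 lost regions, and BRM014 libraries 8.64, 12.9, 13.1 and 3.55%. The ranges were far apart. The mean went from 89.5 ± 1.89% to 9.55 ± 4.5%, and so fell by 79.9 points (exact permutation test, adjusted p = 0.0286 over 23 tests). With dexamethasone in both arms it went from 83.5 ± 2.09% to 9.48 ± 3.17%, and fell by 74.1 points with the same adjusted exact p of 0.0286. Regions held by all 8 siRNA libraries went from 99.7 ± 0.113% in DMSO to 94.5 ± 3.56% in BRM014, and the difference between the 2 sets of regions was 74.7 points (exact adjusted p = 0.0286). The other control siRNA libraries held the lost regions at 99.1 ± 0.136% with vehicle and 97.7 ± 0.223% with dexamethasone (n = 3 each).

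The response to BRM014 was graded by how many knockdown libraries had kept a region. Shared control regions held by 1, 2 or 3 knockdown libraries changed by -62.1, -41.3 and -23.6 points from DMSO to BRM014 (each exact adjusted p = 0.0286). The contrast between lost and held regions was also present at like control rank. In the weakest quintile, lost regions went from 82.3 ± 3.17% to 8.62 ± 4.37% and regions held by all 8 from 95.2 ± 1.19% to 75.3 ± 14.0%. In the middle quintile the values were 99.0 ± 0.275% to 11.8 ± 4.82% for lost regions and 99.9 ± 0.0338% to 93.3 ± 4.76% for held regions. These values within quintiles were not tested.

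The reverse comparison used regions chosen with the inhibitor. Of 64999 regions held by all 4 DMSO libraries, 15930 (24.5%) were held by 0 of 4 BRM014 libraries. Control siRNA libraries held 89.8, 87.2, 77.7 and 72.4% of these, and knockdown libraries 34.1, 11.1, 4.41 and 10.7%. Knockdown replicate 1 stood above the other 3 but below every control library. The mean fell by 66.7 points, from 81.8 ± 8.10% to 15.1 ± 13.0%, whereas the 31738 regions kept by all 4 BRM014 libraries fell by 8.05 points, from 99.4 ± 0.275% to 91.4 ± 7.10%. Each change, and the 58.7 points between them, had an exact adjusted p of 0.0286. With an equal number of best peaks the kept regions changed by -2.26 points (exact p = 0.257), and the inhibitor-lost regions by -62.8 points. Counted directly, 4866 of the 8503 regions lost with the siRNA (57.2%) overlapped a region lost with BRM014, which was 30.5% of the latter, and 151 (1.78%) overlapped a region that all BRM014 libraries kept.

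**Figure D3:**
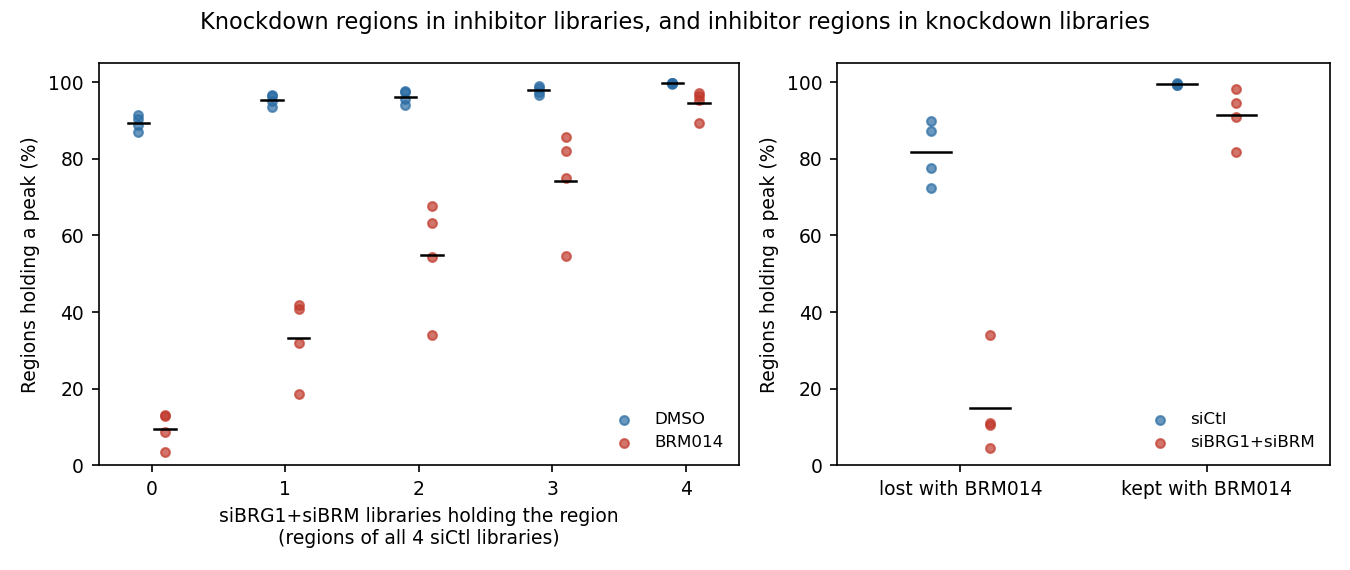
Left, percent of regions holding a peak in each DMSO and BRM014 library, by the number of knockdown libraries (0 to 4) that held the region. Right, percent holding a peak in each siRNA library for regions lost or kept with BRM014. Points are libraries and bars are means. BRM014 libraries sit at 3.55 to 13.1% for lost regions and at 89.4 to 97.3% for regions held by all 8.

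Gained regions were few and of low to middle rank. Their mean percentile in the knockdown lists ran from 11.8 to 53.1, 13 of 35 lay inside a protein-coding gene and 9 were over 250 kb from one. Several of the highest ranked were short and far from genes, among them those nearest ZNF37A (chr10:40128254-40128342, 1978 kb away), OR11H1 (chr22:12176423-12176505) and LOC105375816 (chr8:45940518-45940606). The gained region of highest rank lay 58.8 kb from ST8SIA6, a sialyltransferase (chr10:17513304-17513538). Another, with COX7C as its nearest gene but 290 kb away (chr5:86911165-86911488), was held by 0 of the other control and inhibitor libraries used here. The rest of the 8 of highest rank lay inside MAGI2, 93.5 kb from AUH and 402 kb from LOC102723475. Most were not absent from control cells elsewhere in the study, since 28 of 35 were held by at least 1 siCtl vehicle library, and these libraries held 61.0 ± 4.36% of them (n = 3).

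DMSO libraries held 26.4 ± 5.89% of the gained regions and BRM014 libraries 39.3 ± 3.60%, a difference of 12.9 points (exact permutation test, adjusted p = 0.0286). With dexamethasone they were held at 27.9 ± 2.74% and 49.3 ± 6.34%, a difference of 21.4 points with the same exact adjusted p. The first difference depends on single libraries and on the setting. It was 0.676 points without knockdown replicate 3 (exact p = 0.914) and -2.90 points under the looser rule of at least 3 of 4 against at most 1 of 4 libraries (exact p = 0.543). With an equal number of best peaks it was 43.3 points (exact p = 0.0286), over the 755 regions gained in that setting.

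At the loci of the targeted ATPases the start sites stayed in the lists. At SMARCA4 a region at the start (chr19:10960646-10961015) was held by all 8 libraries, as were a region inside the gene (chr19:11035988-11036211) and the 3 regions upstream that all control libraries held. Another 2 regions downstream of the gene were lost (chr19:11085423-11085780 and chr19:11094979-11095357), and all 4 DMSO and 0 of 4 BRM014 libraries held each. Between them lay 2 regions that all 8 libraries held (chr19:11089293-11089570 and chr19:11090338-11090614), and SMARCA4 had 0 lost regions when lists of equal length were used. Peaks within the gene or 50 kb of it numbered 14, 12, 13 and 11 in control libraries 1 to 4 and 7, 7, 7 and 8 in knockdown libraries 1 to 4. At SMARCA2 the start region (chr9:2015026-2015390) was held by all 8, and a region inside the gene (chr9:2157855-2158054) by 4 control and 1 knockdown library. SMARCA2 had no lost region, and its 3, 4, 5 and 4 control peaks overlapped the 5, 3, 1 and 3 knockdown peaks. Presence in a list does not show equal enrichment. In the SMARCA2 start window the authors' fold enrichment was 28.2, 31.3, 26.7 and 24.6 in control libraries 1 to 4. In knockdown libraries 1 to 4 it was 17.6, 14.2, 12.9 and 23.2, each below every control library. In the SMARCA4 start window the fold values of the groups overlapped. The difference in fold enrichment was not tested. A peak list does not measure RNA or protein, so the depth of the knockdown could not be read from these files.

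Peaks at a gene are counted below in the same way, within the gene or 50 kb of it, with control libraries 1 to 4 first and knockdown libraries 1 to 4 second. Of 18502 protein-coding genes with a shared control region in that window, 38.8% had at least 1 lost region. Of 19295 genes with a control peak, 32.5% had fewer peaks in every knockdown library than in every control library, and 0.0466% (9 genes) had more. In DMSO against BRM014, 38.4% were lower in this sense. The gene lists below are set against these shares and against the 9.09% of regions lost over all genes, with no test. When the best peaks were taken to the same number per list, 27 of the 55 named genes with a lost region had none. These were SMARCA4, ARID1B, SMARCC1, HELLS, SRCAP, CHD8, TEAD3, YAP1, VGLL3, LHFPL6, JUN, FOSL2, TP63, DSG3, CXCL1, CSF2, PTGS2, STOM, BUB1B, RPL10A, RPL27, SYT1, SNAP25, ERG, PTPRC, SPI1 and CSF1R. At a −log10 q of at least 5, 6 had none, namely SRCAP, LHFPL6, JUN, TGFBR2, CXCL1 and SPI1. A gene is named when it has the most changed regions of its list or of the genome, so its own count is a description.

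SWI/SNF subunit genes were near the share of all genes in genes with a lost region, at 11 of 30 (36.7% against 38.8%). They were under it in regions lost, at 6.13% against 9.09%. Within 10 kb, 13.3% of these genes had a lost region, against 23.1% of all genes. ARID1B, which encodes a DNA-binding subunit of the BAF form of the complex, had 25, 27, 24 and 29 peaks against 21, 18, 11 and 14, and 3 of its 20 shared regions were lost. SMARCC1, a core scaffold subunit, had 13, 13, 12 and 14 against 9, 9, 7 and 8. Among 23 genes of other remodellers, 9 had a lost region, with 7.27% of regions lost. HELLS, a remodeller that supports DNA methylation, went from 9, 10, 7 and 10 peaks to 3, 3, 1 and 2, with 3 of 6 shared regions lost (0 lost with an equal number of best peaks). At SRCAP, which deposits a histone variant, the values were 19, 21, 19 and 22 against 17, 15, 9 and 13, and at CHD8 the groups overlapped.

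TEAD factors and YAP coactivators had 18.8% of their shared regions lost, on 6 of 10 genes. This was the highest share among the 16 lists, and the next was that of the neural markers, at 16.1%. With an equal number of best peaks TEAD3, YAP1 and VGLL3 had 0 lost regions. TEAD3, a TEAD factor, had 12, 14, 12 and 14 peaks against 7, 4, 4 and 5 and 4 lost regions. The neighbouring ribosomal gene RPL10A also counts 4 lost regions, in a window that overlaps this one. YAP1, the coactivator of the Hippo pathway, had 17, 16, 14 and 14 against 10, 8, 3 and 4, with 4 of 12 shared regions lost. Knockdown libraries were below all control libraries at both TEAD3 and YAP1, and at 5 of 10 genes of the list (50%), against 32.5% over all genes. VGLL3, a TEAD cofactor, had 3 of 7 shared regions lost but 8 peaks in knockdown replicate 4, so its groups overlapped.

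Genes that YAP and TEAD are known to regulate had a lost region in 17 of 26 cases, with 11.8% of regions lost. ASAP1, a GTPase-activating protein, had 45, 41, 33 and 32 peaks against 23, 14, 14 and 14 and 6 lost regions. At CRIM1, a membrane protein that binds growth factors, the values were 28, 25, 25 and 26 against 19, 13, 4 and 11. LHFPL6 had 14, 17, 13 and 14 against 8, 8, 6 and 6. At these named YAP and TEAD targets the knockdown libraries lay below the control libraries. Over the whole target list 12 of 26 genes (46.2%) did so, against 32.5% over all genes. AP-1 factor genes stood differently, with a lost region at 5 of 13 but 3.91% of regions lost. JUN, a core AP-1 subunit, had 10, 13, 10 and 10 peaks against 6, 7, 5 and 7 and 1 lost region of 8. ATF3, a stress-induced member, had 10, 14, 13 and 14 against 8, 4, 3 and 7. FOSL2 had 9 in each control library against 7, 7, 6 and 8.

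Among 40 mesenchymal and matrix genes, 20 had a lost region and 9.79% of regions were lost, against 9.09% over all genes. TNC, the matrix protein tenascin C, had 13, 12, 10 and 11 peaks against 6, 5, 5 and 7 and 3 of 8 regions lost. ZEB2, a repressor of epithelial genes, had 7, 9, 10 and 7 against 6, 3, 1 and 2. At the fibrillar collagen gene COL5A2 3 regions were lost, yet knockdown replicate 1 had 23 peaks and overlapped the 19 to 25 of the control libraries. The TGF-β pathway had a lost region at 8 of 19 genes. LTBP1, which holds latent TGF-β in the matrix, had 28, 32, 26 and 25 peaks against 14, 10, 8 and 13. The co-receptor gene TGFBR3 had 24, 26, 24 and 22 against 16, 12, 7 and 6. The signalling receptor gene TGFBR2 had 10 in each control library against 8, 7, 5 and 5.

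Epithelial gene lists had lost regions at more of their genes than the share over all genes. The luminal list had 16 of 24, with 12.0% of regions lost. KRT19, a luminal keratin, had 10, 12, 9 and 10 peaks against 6, 3, 2 and 3. GRHL2, a transcription factor of epithelial identity, had 31, 31, 26 and 25 against 22, 12, 5 and 5, although none of the 8 libraries had a peak within 1 kb of either end of the gene. ELF3, an epithelial ETS factor, had 11, 11, 11 and 10 against 7, 7, 5 and 6. The basal list had 12 of 20 with 13.4% of regions lost. LAMA3, a basement membrane laminin chain, had 20, 18, 17 and 16 against 9, 5, 4 and 5. At TP63, the basal transcription factor p63, the counts were 19, 21, 20 and 23 against 14, 12, 7 and 11. The desmosomal gene DSG3 had 6, 6, 6 and 5 against 3, 2, 0 and 1. None of these 3 loci had a knockdown library within the control range. Over the whole basal list 12 of 23 genes (52.2%) were lower in every knockdown library, against 32.5% over all genes. EGFR had 22, 21, 22 and 18 against 16, 15, 12 and 15, with 2 lost regions and 1 gained region (chr7:55133266-55133453). The gained region was not absent from other control cells. It was held by 3 DMSO, 4 BRM014, 0 DEX + DMSO, 3 DEX + BRM014, 3 siCtl vehicle and 2 siCtl DEX libraries.

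Glucocorticoid receptor target genes, although no hormone was given in these 8 libraries, had a lost region at 16 of 29. PDK4, a kinase that restrains pyruvate dehydrogenase, had 6, 6, 5 and 7 peaks against 1, 0, 0 and 1, with 4 of 5 shared regions lost. In DMSO it had 7, 10, 8 and 9 and in BRM014 2, 0, 0 and 0. PHLDB2, a cortical adhesion protein, had 35, 31, 30 and 29 against 22, 17, 12 and 13, and 6 regions lost. STOM had 3 lost regions but overlapping counts. Of the NF-κB and cytokine list, 8 of 23 genes lay near a lost region. CXCL1, a neutrophil chemokine, had 15, 16, 15 and 18 peaks against 11, 11, 8 and 9. CSF2, a myeloid growth factor, had 9, 6, 6 and 6 against 4, 3, 2 and 3. PTGS2, the inducible cyclooxygenase, had 3, 3, 3 and 6 against 2, 1, 1 and 2. The groups were apart at these 3 named genes. Over the whole cytokine list 8 of 24 genes (33.3%) were lower in every knockdown library, against 32.5% over all genes.

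Lists of housekeeping character lay at or under the share of all genes. Cell cycle genes had 12 of 34, with 6.39% of regions lost, and ribosomal protein genes 16 of 48, with 5.11%. CDK6, a G1 kinase, had 26, 29, 26 and 31 peaks against 23, 19, 13 and 18, and BUB1B, a spindle checkpoint kinase, 5, 7, 8 and 6 against 2, 1, 1 and 2. E2F2 had 21, 20, 21 and 21 against 16, 15, 15 and 13. RPL27, of the ribosomal list, had 2 lost regions. Marker genes of other lineages were not free of peaks in this line, and lost regions lay near 3 of 11 leukocyte, 5 of 10 endothelial and 4 of 10 neural markers. Among them SYT1, a synaptic vesicle protein, had 19, 16, 15 and 20 peaks against 8, 7, 7 and 7. SNAP25, a partner in vesicle fusion, had 11, 12, 11 and 13 against 8, 6, 5 and 8. The endothelial gene EMCN had 5, 6, 5 and 6 against 4, 1, 0 and 0, whereas at TEK, an endothelial receptor with 2 lost regions, the counts of 15, 17, 13 and 16 overlapped the 16, 6, 1 and 3 of the knockdown. Of 11 endothelial genes, 3 had fewer peaks in every knockdown library. At PTPRC, SPI1 and CSF1R, the leukocyte markers with a lost region, the groups overlapped.

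Markers that bear on the label of the line were read as a peak within 1 kb of a gene end. The mesenchymal markers VIM, ZEB1, CDH2 and FN1 had one in all 8 libraries, and the luminal markers ESR1, PGR and EPCAM in none. GATA3 had one in 1 control library, and FOXA1 in all 8. Of the leukocyte markers, CD3E had none, SPI1 had one in all 8, and PTPRC in 4 control and 1 knockdown library.

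Over the genome, the most lost regions lay at long genes. LRMDA, a melanocyte differentiation gene, had 12 lost regions of 31, and 45, 48, 45 and 43 peaks against 23, 15, 8 and 12. LDB2, a LIM-domain-binding cofactor, had 10 of 17 lost and 0 held by all 8 libraries, with 23, 22, 21 and 20 peaks against 8, 2, 1 and 3. FHIT, which spans a fragile site, and CAMTA1, a calmodulin-binding transcription factor, had 10 each. ITPR2, a calcium channel of the endoplasmic reticulum, and LRP1B, a lipoprotein receptor relative, had 9 each, and LRP1B had 28, 28, 29 and 30 peaks against 13, 5, 2 and 3. All 6 had fewer peaks in every knockdown library than in any control library, and fewer in every BRM014 library than in any DMSO library. Of the 55 named genes with a lost region, 47 were lower in the knockdown libraries in this sense, which the naming by lost regions favours. In the inhibitor libraries, which the naming did not use, 45 were lower in BRM014. Over all genes with a peak the shares were 32.5% for the knockdown and 38.4% for BRM014. The named genes were not matched to all genes by number of peaks. The counts are not per length of the gene.

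Genes with most gained regions had 1 each, and 0.226% of 19432 genes with a region had any. NXNL2 had 5, 4, 5 and 5 control and 6, 7, 8 and 7 knockdown peaks. It is 1 of the 9 genes with more peaks in every knockdown library, while its DMSO and BRM014 counts overlapped. The other 5, SFMBT2, DCUN1D1, SPRY2, ATP11B and CDH11, had overlapping counts, and so had BATF2.

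**Figure D4:**
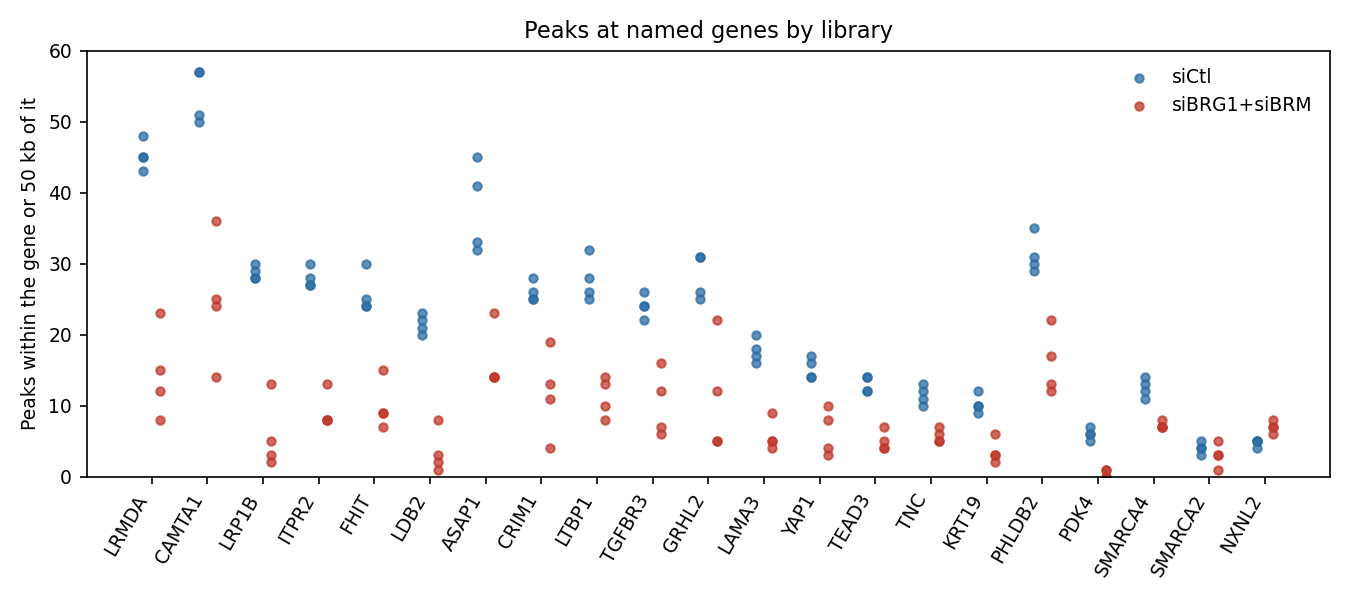
Peaks within the gene or 50 kb of it at 21 of the named genes, with 1 point per library (overlapping points coincide). Knockdown libraries lie below all control libraries at 19 of them, overlap at SMARCA2 and lie above at NXNL2. The 21 were picked for display. Named genes with a lost region but overlapping counts, such as VGLL3, COL5A2, STOM and TEK, are not drawn. Over all genes with a control peak, 32.5% lie below in this sense.

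Of the lost regions of highest control rank, 7 are described here. They lay inside or between genes, and fewer BRM014 than DMSO libraries held each of them. The first lay 18.2 kb from TNFRSF11B, the decoy receptor osteoprotegerin (chr8:118905234-118905519), followed by regions near USP25, a deubiquitinase (chr21:15706740-15707139), NTSR1, the neurotensin receptor (chr20:62703585-62703827), and inside PIK3C2B, a lipid kinase (chr1:204438604-204438993). The other 3 lay inside ZC3H3 (chr8:143454654-143454895), inside COL4A6, a basement membrane collagen (chrX:108167431-108167728), and near CHST2, a sulfotransferase (chr3:143135235-143135506). All 4 DMSO libraries held each of the 7. BRM014 libraries held 0 at USP25, COL4A6 and CHST2, 1 at TNFRSF11B, NTSR1 and PIK3C2B, and 2 at ZC3H3. The authors' fold enrichment at the USP25 region was 26.3, 30.2, 27.8 and 23.6 in control libraries 1 to 4.

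Start-site windows were rarely lost. Of 22131 RefSeq windows of 300 bases at 15811 protein-coding genes, the 4 control libraries held 11614. Of these, 156 were lost (1.34%, at 151 genes) and 10054 were held by all 8, while 1 window of the 22131 was gained (0.00452%). All 4 DMSO libraries held 91 of the 156, 0 of 4 BRM014 libraries held 89, and both were true of 49. The same counts are not given here for the other windows, so these cannot be set against a background share. Lost windows had a median GC content of 65.3% against 66.3% in those held throughout, and 23 against 28 CpG.

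Sequence letters differed between the lost and the held windows. TGANTCA, the AP-1 letters, occurred in 23 of the 156 lost windows (14.7%), in 3.43% of windows held by all 8 and in 6.15% of all windows. CCGGAAG, the ETS letters found at many housekeeping promoters, occurred in 5.77, 22.4 and 12.8%, and the GC box GGGCGG in 56.4, 76.4 and 56.3%. The TEAD letters GGAATG occurred in 15.4, 9.81 and 12.2% and TATAAA in 10.3, 4.17 and 9.46%. Windows that none of the 8 libraries held had AP-1 letters in 8.86% and TATAAA in 16.3%. Both strands were searched, and matches of different motifs overlapped in 15 windows for AP-1 and TEAD, 42 for TEAD and GC box, 67 for GC box and ETS and 5 for TEAD and ETS. These shares describe the letters of the windows, and no binding was measured.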

How the data were processed

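The deposited files are MACS2 peak lists, 1 per library, in GRCh38 (hg38) coordinates, and bcl2fastq, SAMtools and HOMER were also used, per the submitters' processing notes. About 25 M reads per library were aimed at, per the labels. The aligner, read shifting, duplicate handling and caller settings are stated in none of the sources used here. For each peak the authors deposited a fold enrichment (a ratio), a −log10 p and a −log10 q. Total counts are not in the lists. Relative depth was recovered from fold and p in the 3000 weakest peaks of each library. For each peak the background was taken that gives a whole pileup within a tolerance of 0.002 of the −log10 p. All 3000 peaks gave one in each of the 8 libraries, and the lowest was used.

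Regions, the rule for lost and gained, and distal peaks are defined in the results. Genes (RefSeq, GRCh38.p14) were 19970 protein-coding and 18177 lncRNA. All 379 members of 16 gene lists matched. Values per library were tested by exact permutation of the group labels (two-sided, difference of means), with Benjamini-Hochberg adjustment over 5 and 23 tests. Some of the 23, those by start-site distance and between sets, were added after the data were seen. Members and lists were chosen with earlier results of these data known. Named genes are SMARCA4, SMARCA2, in each list the 3 genes or fewer with most lost and with most gained regions, the 6 genes genome-wide with most in each direction, and the 8 lost and 8 gained regions of best mean percentile of −log10 q. Alternatives were a −log10 q of at least 5, an equal number of best peaks, peaks covering 50% of the region, a looser presence rule, distal over 5000 bp, 10 kb from a gene, leaving out libraries and pairing by number. The titles call the libraries biological replicates and do not say whether they came from separate cultures, so p-values measure the spread between libraries. The scripts were tested on simulated data. Python 3.11.15, numpy 2.4.6, pandas 2.3.3, scipy 1.17.1 and matplotlib 3.10.9 were used. The siGATA6 libraries were not used here, and no genome sequence was used for distal regions. A few items that the naming rule selects are not reported here.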

Additional observations from a re-analysis of the deposited data

Results flagged for a closer look

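In groups of 4 libraries, a value was singled out when its gap to the nearest other, divided by the range of the group, exceeded Dixon's critical value, which chance gives in about 1 group in 20. Of 172 groups, 20 did so (11.6%), 18 of them counts of peaks at a gene, which are small whole numbers with many ties. Control replicate 3 had the fewest peaks of its group, 81639. Of the regions held by 4 control and 1 knockdown library, 1 DEX + DMSO library held 93.7%, above the other 3.

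Among control libraries, the highest count stood apart at JUN (13 peaks), CSF2 (9), PTGS2 (6), STOM (10) and FHIT (30). The lowest stood apart at CHD8 (8), ELF3 (10), DSG3 (5), E2F2 (20), SFMBT2 (1), DCUN1D1 (2) and NXNL2 (4). Among knockdown libraries, the highest stood apart at SMARCA4 (8), ASAP1 (23), SYT1 (8), ITPR2 (13) and DCUN1D1 (3), and the lowest at SFMBT2 (1). At ASAP1 and ITPR2 the high library was knockdown replicate 1, which also had most peaks in all.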

How the results depend on the processing

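With an equal number of best peaks, 2551 regions were lost, 755 gained, and regions kept with BRM014 changed by -2.26 points in the knockdown libraries (exact p = 0.257). The share of gained regions held in BRM014 minus DMSO was then 43.3 points (exact p = 0.0286), and the distal share differed by -5.91 points (exact p = 0.0286). With the looser presence rule 25848 were lost and 431 gained, and the share of gained regions held in BRM014 minus DMSO reversed to -2.90 points (exact p = 0.543). At a −log10 q of at least 5 that difference was 18.8 points (exact p = 0.0857). Within 10 kb of a gene, distinct list genes with a lost region numbered 93 instead of 166. Over the other alternatives these results kept their direction and their side of the threshold, apart from the runs below.

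Leaving out 1 library at a time gave 8584 to 15275 lost and 41 to 79 gained regions. The highest lost count was without knockdown replicate 1. Gained counts over 1.5 times the reported 35 came without control replicates 2 (58) and 3 (54) and knockdown replicates 1 (69), 3 (74) and 4 (79). The difference in peaks ran from -40059 to -30251, in distal share from -11.3 to -7.53 points, in covered sequence from -8.57 to -6.69 Mb and in median width from -15.1 to -12.1 bp. Lost regions changed by -81.1 to -72.7 points in BRM014 and by -75.5 to -68.9 in DEX + BRM014. In the knockdown libraries BRM014-lost regions changed by -73.0 to -63.2 and BRM014-kept regions by -11.2 to -4.85 points. The exact p was 0.0571 for peaks, distal share and BRM014-kept regions without any 1 control library. Gained regions in BRM014 ran from 0.676 to 14.5 points, with an exact p of up to 0.914. That p was above 0.05 without any 1 control library, without knockdown replicates 1, 3 or 4, DMSO replicates 1 or 4, or BRM014 replicate 4.

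Control and knockdown libraries of the same number were no more alike than others in the regions they held. This cannot show whether they shared a culture or batch. Correlations of same-numbered control and knockdown libraries ran from -0.0504 to 0.0297, those of other pairs from -0.0374 to 0.0471, 0 of 4 pairs exceeded 0.1, and 3 of 8 libraries correlated best with their own number. With the number as a replicate block, the differences were as reported (-34835 peaks, -9.10 points distal, -7.59 Mb, -13.5 bp, -79.9, -74.1, 12.9, -66.7 and -8.05 points) and each exact p was 0.125, the smallest that 4 pairs allow. Without read counts in the lists, a region below the threshold in a library may still be accessible there.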

Other observations

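The lost share of shared control regions differed between chromosomes, from 5.50% of 2673 on chromosome 19 to 20.03% of 2871 on chromosome 4. Promoter windows with a GC content below 45% were lost in 10 of 201 cases (4.98%), and those from 65 to 75% in 59 of 4752 (1.24%).

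The following were picked after their values were seen. Besides the windows printed above, lost start-site windows of high control rank included those of PDE4D, a cAMP phosphodiesterase, CD9, a tetraspanin, and RUVBL1, an ATPase of other remodelling complexes. All 4 DMSO and 0 of 4 BRM014 libraries held each of the 3. The lost window of highest control rank, at CDKL1, was held by 1 DMSO and 2 BRM014 libraries. A gained region at KIAA1217 (chr10:24465812-24466208), 0.377 kb from a start site, was held by 4 of 4 BRM014 and 4 of 4 DEX + BRM014 libraries and by 0 of the DMSO, DEX + DMSO, siCtl vehicle and siCtl DEX libraries. The gained region at SPRY2, a feedback inhibitor of receptor tyrosine kinase signalling (chr13:80341862-80341968), was held by 4 DEX + BRM014 and 0 DEX + DMSO libraries, by 1 BRM014 and 0 DMSO libraries, and by 2 siCtl DEX and 0 siCtl vehicle libraries.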
